A study of Mus musculus with 4 samples.

Results

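The mucosal mast cell genes examined here were Mcpt1, Mcpt2, Cpa3, Kit, Fcer1a and Fcer1g, followed in the mouse ileum with and without activation of the pregnane X receptor (PXR). They were taken by gene symbol from a table of expression values for 11489 genes and 21160 transcripts. Of the 6 genes, 5 were found, with 6 transcripts between them, and Fcer1a was not analysed here. The low Mcpt1 and Mcpt2 values under treatment in these same libraries were what chose the set, so the difference between groups for the 6 genes is given as a description without a p-value. Wild-type (WT) C57BL/6J mice, 8 weeks old, received 3 intraperitoneal injections at 8 h intervals of either vehicle, labelled DMSO, or 40 mg/kg pregnenolone-16α-carbonitrile (PCN), a steroid that activates mouse PXR. DMSO and corn oil were the solvents of PCN, and ileum, the tissue named in the labels, was taken 8 h after the last injection. Each group had 2 libraries of total RNA (vehicle 1 and 2, PCN 1 and 2), and no library of mice lacking PXR or mast cells was analysed here. Whether each library came from a separate animal is not given in the labels, and p-values therefore cover the spread among these libraries alone, which may be technical.

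Mast cells are long-lived immune cells of tissues that store proteases in granules and release them on activation. Those of the gut mucosa in mice are known for the chymase-type serine proteases encoded by Mcpt1 and Mcpt2, while mast cells of connective tissue carry other chymases and tryptases. Both kinds depend on KIT, the receptor for stem cell factor, and carry the high-affinity IgE receptor, which is built from an alpha chain (Fcer1a), a beta chain (Ms4a2) and a gamma chain (Fcer1g). Cpa3 encodes the granule carboxypeptidase that mast cells share with some basophils. KIT also marks the interstitial cells of Cajal, the pacemaker cells of the gut wall, and the gamma chain serves Fc receptors of macrophages and other leukocytes. Kit and Fcer1g transcripts in whole ileum are therefore not only from mast cells.

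The 2 chymase genes are neighbours on chromosome 14 and similar in sequence, which bears on whether their values can be told apart. In GENCODE M21 on GRCm38 (mm10), Mcpt1 (ENSMUSG00000022227.5) lies at chr14:56017971-56020384 and Mcpt2 (ENSMUSG00000022226.6) at chr14:56042041-56044642, both on the plus strand and both with 5 exons. Their coding sequences of 738 and 732 bases were identical at 81.2% of aligned positions. The longest stretch that they shared without a difference was 49 bases, at coding bases 34 to 82 of both, and is shown because reads lying wholly inside it fit both genes.
Mcpt1 and Mcpt2: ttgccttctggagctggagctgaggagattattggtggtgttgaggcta
No 50-base word of any of the 6 member transcripts occurred in a transcript of another gene, and in no library did a member share its value to every digit with another gene.

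GATA factors are known regulators of mast cell genes, so the start regions of the protease genes are shown with GATA words in capitals. RefSeq (GRCm38.p6) gave windows of 250 bases before to 50 bases after the start for 5 of the 6 genes, Mcpt2 being the exception. The Mcpt1 window is chr14:56017714-56018013 on the plus strand, and the Cpa3 window is chr3:20242132-20242431 on the minus strand.
Mcpt1: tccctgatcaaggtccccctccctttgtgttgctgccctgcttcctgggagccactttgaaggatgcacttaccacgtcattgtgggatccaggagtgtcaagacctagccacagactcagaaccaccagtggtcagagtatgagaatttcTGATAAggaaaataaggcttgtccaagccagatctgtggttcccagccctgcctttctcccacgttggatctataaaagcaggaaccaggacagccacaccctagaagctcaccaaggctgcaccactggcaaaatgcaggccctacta
Cpa3: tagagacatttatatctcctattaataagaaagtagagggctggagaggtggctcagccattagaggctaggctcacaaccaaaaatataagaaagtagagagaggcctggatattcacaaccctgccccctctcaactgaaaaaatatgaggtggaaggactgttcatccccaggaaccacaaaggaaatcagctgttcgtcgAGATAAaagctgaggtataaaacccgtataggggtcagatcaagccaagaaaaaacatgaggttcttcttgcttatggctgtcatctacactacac
The words searched on both strands were AGATAA and its variant TGATAA, together with AGATAG and its variant TGATAG. Mcpt1 held TGATAA with its first base at -99 from the start and Cpa3 held AGATAA at -46. Fcer1a held a reverse-strand match, TTATCT, at -92, and the Kit and Fcer1g windows held none of these letters. Of 27025 promoters searched, 30.2% had such a word. Mcpt1 and Cpa3 also had TATAAA, the TATA box, at -28 and -31, a word found in 14.2% of promoters. Cpa3 had a further reverse-strand match, TTTATA, at -242, and Fcer1a had TATAAA at -125. The half-sites of nuclear receptors AGGTCA and AGTTCA, present in 27.6% of promoters, were in none of the 5 windows. These matches describe letters in the windows and not binding.

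Both chymase genes were far lower in the PCN libraries. Mcpt1 stood at 41.8 and 35.0 FPKM in the vehicle libraries and at 5.78 and 2.80 FPKM in the PCN libraries, where FPKM is the number of fragments scaled to transcript length and to the mapped fragments of the library. The groups were far apart, and PCN 2 was the lowest library. The mean went from 38.4 ± 4.80 to 4.29 ± 2.11 FPKM (SD, n = 2 per group), which is 8.95-fold lower or 11.2% of vehicle. On the log2(FPKM + 1) scale, on which all differences below are given as PCN minus vehicle, the Mcpt1 difference was -2.95 (SE 0.30), the 14th lowest among the 11103 genes tested, whose mean over the libraries was 1 FPKM or more.

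Mcpt2 read 17.8 and 18.3 FPKM in the vehicle libraries and 3.11 and 1.56 FPKM in the PCN libraries. Again the groups did not overlap and PCN 2 was lowest. The mean went from 18.1 ± 0.321 to 2.33 ± 1.10 FPKM (SD, n = 2 per group), 7.75-fold lower or 12.9% of vehicle, with a log2 difference of -2.56, the 16th lowest. The level of Mcpt1 was 2.34, 1.91, 1.86 and 1.80 times that of Mcpt2 in vehicle 1, vehicle 2, PCN 1 and PCN 2, so the order of the pair held in every library.

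Cpa3, the third granule enzyme, was scarce throughout and lower still in the PCN libraries. It read 1.46 and 1.05 FPKM in vehicle and 0.462 and 0.127 FPKM in PCN. The groups did not overlap, and vehicle 1 was highest and PCN 2 lowest, the same order as for Mcpt1. Transcripts had values only where the larger group mean exceeded 1 FPKM, a limit that Cpa3 passed through vehicle alone. That filter favours lower PCN values in a gene this scarce, so no support is drawn from its difference or order. The mean went from 1.25 ± 0.289 to 0.295 ± 0.237 FPKM (SD, n = 2 per group), 4.26-fold lower or 23.5% of vehicle, with a log2 difference of -0.81 that the added 1 FPKM makes small. Its mean of 0.774 FPKM over the 4 libraries was below the limit of 1 FPKM, so Cpa3 was outside the fit across genes. Mcpt1 was 28.6, 33.4, 12.5 and 22.0 times Cpa3 in the 4 libraries in the same order, a ratio that was lower in both PCN libraries than in either vehicle library. Estimates this low rest on few fragments, and how far counting error enters them is unknown without read counts.

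**Figure D1:**
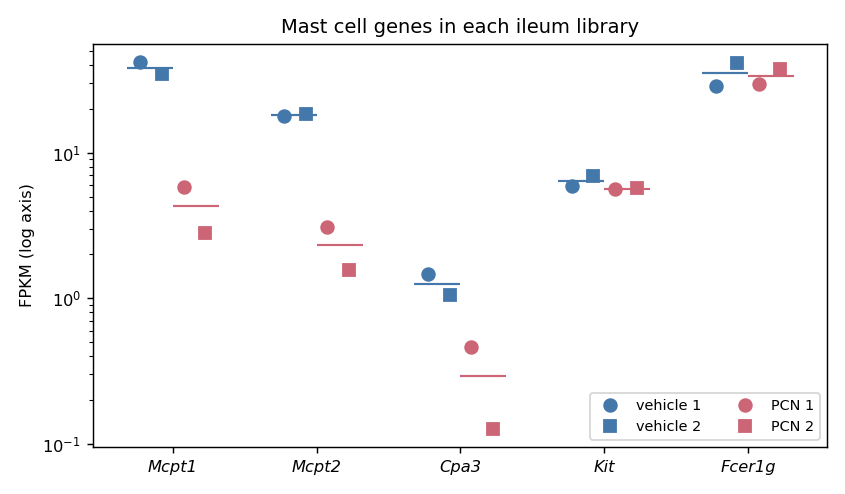
FPKM (log axis) of the 5 mast cell genes in each library, with circles for replicate 1, squares for replicate 2, blue for vehicle, red for PCN and a line at each group mean of n = 2. Mcpt1, Mcpt2 and Cpa3 lie well below vehicle in both PCN libraries, whereas the Kit points lie close together and the Fcer1g groups overlap.

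Kit, the receptor for stem cell factor, showed little of this difference. It read 5.90 and 6.90 FPKM in vehicle and 5.64 and 5.69 FPKM in PCN. Both PCN libraries lay below both vehicle libraries, by a margin smaller than the gap between the vehicle libraries. The mean was 6.40 ± 0.708 in vehicle and 5.67 ± 0.0313 FPKM in PCN (SD, n = 2 per group), or 88.6% of vehicle, and the log2 difference was -0.15 (SE 0.15).

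The table split Kit into 2 transcripts whose coding sequences differ by the splice site of an exon. This is a known source of KIT proteins with and without a short insert in the part outside the cell. The form with the longer coding sequence (ENSMUST00000005815) has 12 extra coding bases, at positions 1538 to 1549 of 2937. Its coding sequence is otherwise the same as that of the shorter form (ENSMUST00000144270). The whole transcripts, of 5214 and 5241 bases in that order, also differ outside the coding sequence. The coding sequences around this site are shown with the extra bases in capitals.
Kit longer form: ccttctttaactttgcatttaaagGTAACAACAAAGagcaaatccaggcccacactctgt
Kit shorter form: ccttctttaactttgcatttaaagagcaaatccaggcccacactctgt
The gene lies at chr5:75574916-75656722 on the plus strand. The longer form read 3.06 and 4.89 FPKM in vehicle and 3.94 and 4.61 FPKM in PCN, overlapping groups. The shorter form read 2.84 and 2.00 FPKM in vehicle and 1.70 and 1.07 FPKM in PCN, with both PCN libraries lower and a log2 difference of -0.52. Its share of Kit was 48.1% and 29.1% in vehicle and 30.2% and 18.9% in PCN. Those shares overlapped between the groups. Since their coding sequences differ by so few bases, how reads were divided between the forms is an estimate.

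Fcer1a, the chain that binds IgE and the defining one of the high-affinity receptor, was not analysed here. Fcer1g, the shared gamma chain, read 28.8 and 41.3 FPKM in vehicle and 29.7 and 37.8 FPKM in PCN. The PCN values lay between the vehicle values. The mean was 35.1 ± 8.86 in vehicle and 33.8 ± 5.72 FPKM in PCN (SD, n = 2 per group), 96.4% of vehicle, with a log2 difference of -0.04 (SE 0.21).

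By level per length, Fcer1g and Mcpt1 were the highest of the 5 genes in vehicle and their values overlapped there (28.8 to 41.3 and 35.0 to 41.8 FPKM). Mcpt2, Kit and Cpa3 followed in that order without overlap. In PCN, Fcer1g stayed highest, Kit and Mcpt1 overlapped (5.64 to 5.69 and 2.80 to 5.78 FPKM), and so did Mcpt1 and Mcpt2 (1.56 to 3.11 FPKM), with Cpa3 the lowest in both libraries.

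PCN was lower than vehicle without overlap in 3 of the 4 members tested, where 19.1% of the 11103 genes were. As the contrast itself chose the members, nothing is read from this count. Cyp3a11, the best known target of PXR, served as a check on the treatment and went from 26.1 and 14.7 FPKM in vehicle to 163 and 214 FPKM in PCN.

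To see whether the members moved apart from immune cells as a whole, each was divided by the summed FPKM of 12 genes that most leukocytes express. This sum was 262 and 290 in vehicle and 245 and 271 in PCN, overlapping groups. Its largest term was Cd52, at 113 and 117 FPKM in vehicle and 107 and 121 FPKM in PCN. Of the 12 genes, 9 had negative and 3 positive log2 differences, with a median of -0.12. The ratio of PCN to vehicle on this footing was 0.121 for Mcpt1, 0.140 for Mcpt2 and 0.257 for Cpa3. It was 0.951 for Kit and 1.03 for Fcer1g. Ptprc, the CD45 antigen of leukocytes, read 16.5 and 19.1 FPKM in vehicle and 18.0 and 19.5 FPKM in PCN, again overlapping. In whole tissue, fewer cells of a type and less RNA per cell cannot be told apart.

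**Figure D2:**
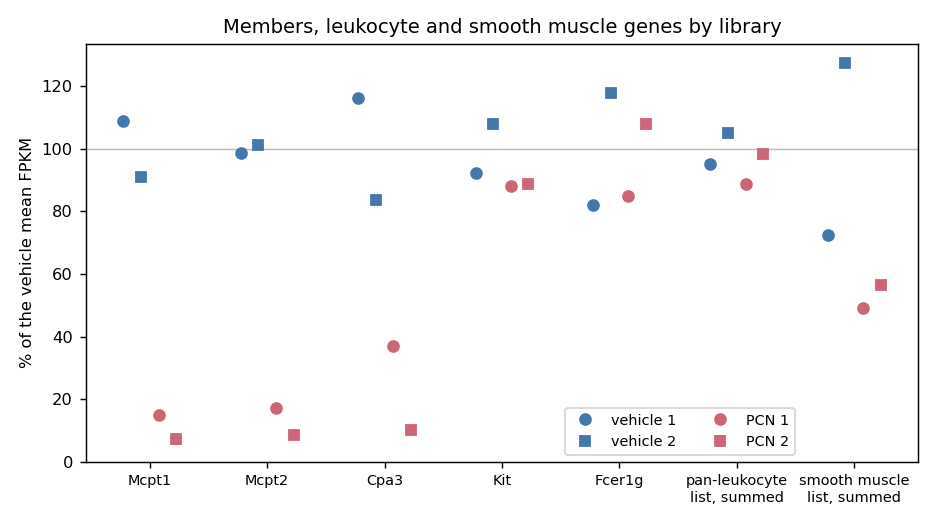
Level in each library as a percentage of the vehicle mean FPKM, for the 5 members and for the summed pan-leukocyte and smooth muscle lists, with symbols as in the plot of member levels and a grey line at 100%. Mcpt1 and Mcpt2 are at 15.1% and 17.2% in PCN 1 and at 7.29% and 8.61% in PCN 2, while the leukocyte sum stays between 88.8% and 105% in all libraries and the smooth muscle sum is at 49.0% and 56.5% in PCN.

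The central question was whether other mast cell genes fell with Mcpt1 and Mcpt2. None of those that could be tested passed the test across all genes in either direction. Of 86 further genes on 5 lists (proteases, receptors, mediators, signalling and transcription factors, growth and induction), 57 were found and 54 were tested. limma with Benjamini-Hochberg adjustment called 0 of the 54 lower and 0 higher at an adjusted p of 0.05, where it called 0.0540% of all genes lower and 0.0811% higher. Calls were this rare over all genes, so 0 among 54 was near the share and cannot answer the question. The same limma test did not call Cyp3a11, the check on the treatment, either (adjusted p 0.064). At an unadjusted p under 0.05, 1 was lower (Smad7) and 2 were higher (Il3ra and Smad4), where 4.11% of all genes were lower and 5.25% higher at the same limit. PCN was lower than vehicle without overlap in 7 of the 54 and higher in 17 of the 54, where 19.1% of all genes were lower and 21.1% higher. The median log2 difference was 0.08, beside 0.00 over all genes (0.00285 before rounding), with 18 genes negative and 36 positive, and the range was from -0.50 (Tfe3) to 0.87 (Alox5ap). The median was 0.05 without vehicle replicate 1 and 0.04 without PCN replicate 2. The summed FPKM of the lists was 806 and 832 in vehicle and 857 and 849 in PCN. Most of these genes are also expressed by other cells of the gut, so the lists say less about mast cells than the member proteases do.

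The lists' most specific genes were the ones with the fewest values. Mast cells were to be recognised by 9 markers (Mcpt1, Mcpt2, Cpa3, Kit, Fcer1a, Ms4a2, Hdc, Tpsb2 and Gata2), of which 4 were found, all of them members. The chymases Mcpt4 and Cma1 and the tryptases Tpsab1 and Tpsb2 of connective tissue mast cells, the IgE receptor chain Ms4a2, the histidine decarboxylase gene Hdc, which makes histamine, and the transcription factor genes Gata2 and Mitf were among 29 listed genes not analysed here. None of the 6 basophil genes listed outside the members was found either. Transcripts were in the table only where the larger of the group means exceeded 1 FPKM (smallest 1.00), so a gene without a row is not shown to be absent from the tissue.

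Among the proteases other than the members, 2 of 9 were tested and 0 were called in either direction (0 at an unadjusted p under 0.05). Tpsg1, a membrane-anchored tryptase, read 16.8 and 16.6 FPKM in vehicle and 18.8 and 13.2 FPKM in PCN, overlapping, with a log2 difference of -0.08. Ctsc, whose product cathepsin C activates granule serine proteases, chymases included, read 63.2 and 61.8 FPKM in vehicle and 68.2 and 67.1 FPKM in PCN. Both PCN libraries were higher, with a log2 difference of 0.11 and an adjusted p of 0.69 by limma. Ctsc is expressed by many other cells of the gut as well. Which cells gave the Tpsg1 values was not tested, so they are not read as those of mast cells.

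Of the receptors, 6 were tested and 0 called (1 higher at an unadjusted p under 0.05), with a median log2 difference of 0.14. Il3ra, the alpha chain of the receptor for interleukin 3, a mast cell growth factor in mice, read 1.09 and 1.37 FPKM in vehicle and 1.99 and 2.84 FPKM in PCN, a log2 difference of 0.61 with an adjusted p of 0.51. Il1rl1, the receptor for interleukin 33, read 1.62 and 0.00664 FPKM in vehicle and 1.43 and 1.53 FPKM in PCN. Its log2 difference of 0.61 rested on the vehicle library near 0, since the other vehicle library lay above both PCN libraries. Cd63, a membrane protein of secretory granules found in many cells, was at 184 and 194 FPKM in vehicle and 202 and 204 FPKM in PCN.

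Of the mediator genes, 12 were tested and 0 called (0 at an unadjusted p under 0.05), with a median of 0.08. Srgn encodes serglycin, the proteoglycan core to which chymases and carboxypeptidase bind in the granule. It read 36.0 and 43.2 FPKM in vehicle and 36.2 and 43.3 FPKM in PCN, nearly the same pair of values, with a log2 difference of 0.00 (0.00483 before rounding). Serglycin is also made by other leukocytes. Tph1, the tryptophan hydroxylase that makes serotonin in mast cells and in enterochromaffin cells, read 2.47 and 2.78 FPKM in vehicle and 2.59 and 2.18 FPKM in PCN, overlapping, with a difference of -0.10. Alox5ap, which serves leukotriene synthesis, was at 4.24 and 0.000880 FPKM in vehicle and 4.35 and 2.25 FPKM in PCN, so the largest positive difference of the 5 lists rested on 1 vehicle library near 0.

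Of the signalling and transcription factor genes, 17 were tested and 0 called (0 at an unadjusted p under 0.05), with a median of 0.04. Lyn, a kinase that acts first below the IgE receptor, read 18.4 and 19.0 FPKM in vehicle and 19.2 and 17.9 FPKM in PCN. Syk, the kinase recruited by the gamma chain, read 9.47 and 8.21 FPKM in vehicle and 9.54 and 11.4 FPKM in PCN, a log2 difference of 0.22 with an adjusted p of 0.71. The Lyn values overlapped between the groups, and both PCN libraries were above both vehicle libraries for Syk. Tfe3, a relative of the mast cell factor MITF, read 5.74 and 9.12 FPKM in vehicle and 4.22 and 5.51 FPKM in PCN, a log2 difference of -0.50 with an adjusted p of 0.61.

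The growth and induction list held signals from outside the mast cell along with receptors, integrins and intracellular Smad genes. It gave 17 tested genes and 0 calls (1 lower and 1 higher at an unadjusted p under 0.05), with a median of 0.10. Kitl, which encodes stem cell factor, read 22.9 and 21.9 FPKM in vehicle and 17.9 and 21.2 FPKM in PCN. Both PCN libraries were lower, PCN 2 only slightly, with a log2 difference of -0.19 and an adjusted p of 0.69. Transforming growth factor beta is known to induce Mcpt1 in cultured mouse mast cells. Its gene Tgfb1 read 9.77 and 9.51 FPKM in vehicle and 9.95 and 11.3 FPKM in PCN, a difference of 0.12 with an adjusted p of 0.80. Smad4, which carries its signal to the nucleus, read 35.6 and 36.6 FPKM in vehicle and 46.6 and 50.6 FPKM in PCN (log2 difference 0.42, adjusted p 0.22). Smad7, which restrains the same signal, read 16.0 and 21.1 FPKM in vehicle and 13.5 and 12.1 FPKM in PCN (log2 difference -0.49, adjusted p 0.46). Il33, an alarm signal of epithelium and stroma, read 6.98 and 7.80 FPKM in vehicle and 8.78 and 18.9 FPKM in PCN, where PCN 2 stood apart, and its adjusted p was 0.60.

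**Figure D3:**
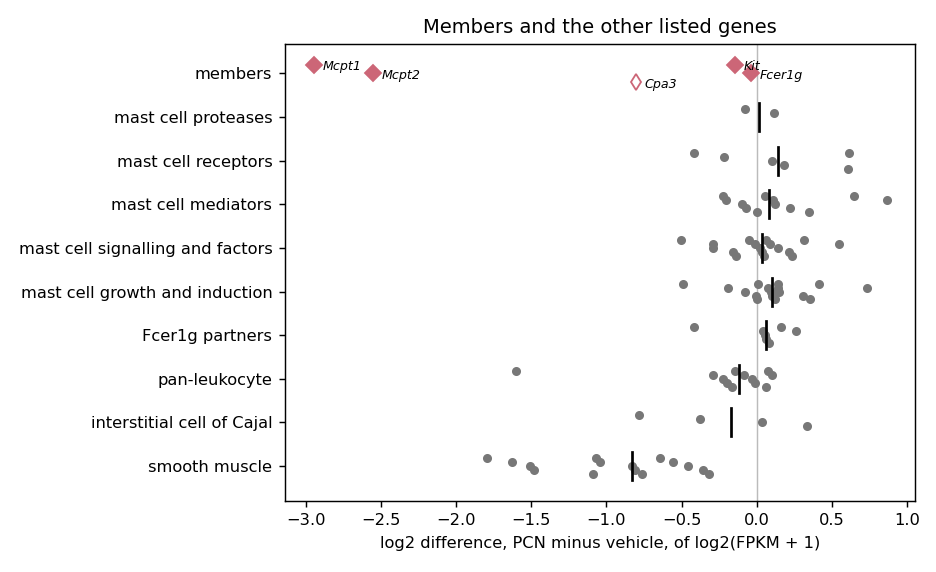
Difference between PCN and vehicle in mean log2(FPKM + 1) for the 5 members (red diamonds, open for Cpa3, which was not tested) and for the tested genes of 5 mast cell lists and 4 other lists (grey points, with a black line at each list's median). Mcpt1 and Mcpt2 lie at -2.95 and -2.56, beyond every gene of the lists drawn, while the mast cell lists centre between 0.02 and 0.14 and the smooth muscle list at -0.83.

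Markers of other cells that carry Kit or Fcer1g were read beside them. Of the interstitial cell of Cajal genes other than Kit, 4 were tested and 0 called. At an unadjusted p under 0.05, 1 was lower, where 4.11% of all genes were. There were 2 negative and 2 positive differences, with a median of -0.17. This median was -0.40 without vehicle replicate 1, -0.03 without vehicle replicate 2 and -0.04 without PCN replicate 1, so single libraries set its size. Ano1, the chloride channel that defines these cells, was listed at 2.43 FPKM in vehicle 1 and at 0 in the other 3 libraries, which allows no comparison. Edn3 read 7.61 and 8.26 FPKM in vehicle and 6.55 and 5.28 FPKM in PCN, with an adjusted p of 0.56. Pde3a went the other way, at 2.57 and 2.20 FPKM in vehicle and 4.50 and 2.30 FPKM in PCN. Its groups overlapped, with a log2 difference of 0.33. The partners and relatives of Fcer1g gave 7 tested genes, 0 called (0 at an unadjusted p under 0.05) and a median of 0.06. Tyrobp, the adaptor closest to the gamma chain in role, read 39.8 and 49.1 FPKM in vehicle and 43.2 and 49.0 FPKM in PCN, overlapping as Fcer1g did, with vehicle 2 and PCN 2 the higher library of each group for both genes.

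Smooth muscle genes had lower values in the PCN libraries too, although none passed the adjusted test. Of 15 listed, 15 were tested, all 15 differences were negative, and PCN was lower without overlap in 12, where 19.1% of all genes were, with 0 called and 11 lower at an unadjusted p under 0.05, where 4.11% of all genes were. The median was -0.83. It was -1.57 without vehicle replicate 1 and -0.51 without vehicle replicate 2, and 0.70 with the mean log2 level of the pan-leukocyte list as a covariate. The summed FPKM was 740 and 1301 in vehicle and 500 and 577 in PCN. The part of muscle content in the members' values was not tested. The ileal epithelium was present in every library, with the bile acid binding protein gene Fabp6 at 8059 and 6757 FPKM in vehicle and 4228 and 3652 FPKM in PCN (log2 difference -0.91, adjusted p 0.11). Fabp6 had the lowest difference of its list. Of the 12 genes tested on it, 8 differences were negative and 4 positive, with a median of -0.06. The list had 0 called, with 3 lower at an unadjusted p under 0.05, where 4.11% of all genes were. Lgals4 read 2225 and 2209 FPKM in vehicle and 2475 and 2178 FPKM in PCN, overlapping, with a log2 difference of 0.07.

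Genes of other granulated or secretory immune cells were read beside the mast cell proteases. Of the intraepithelial lymphocyte and natural killer cell list, 7 were tested and 0 called, with 5 higher at an unadjusted p under 0.05, where 5.25% of all genes were. It had 5 positive and 2 negative differences and a median of 0.34. Gzma, the granzyme A gene of intraepithelial lymphocytes and natural killer cells, read 97.8 and 93.8 FPKM in vehicle and 146 and 131 FPKM in PCN (log2 difference 0.52, adjusted p 0.15). Prg2, the granule major basic protein gene of eosinophils, read 1.10 and 1.03 FPKM in vehicle and 0.876 and 2.14 FPKM in PCN, overlapping. Of the neutrophil list, 4 were tested and 0 called, with 1 higher (S100a9) at an unadjusted p under 0.05, where 5.25% of all genes were. It had 2 positive and 2 negative differences and a median of 0.55. The positive ones were S100a8 and S100a9, and the negative ones were no lower than -0.04. S100a8 read 8.15 and 20.9 FPKM in vehicle and 20.6 and 42.0 FPKM in PCN, overlapping. S100a9 read 9.18 and 13.6 FPKM in vehicle and 17.9 and 39.9 FPKM in PCN (log2 difference 1.19, adjusted p 0.47 by limma). Jchain, which joins the immunoglobulins of plasma cells, read 596 and 573 FPKM in vehicle and 765 and 799 FPKM in PCN (log2 difference 0.42, adjusted p 0.14). Over the 17 lists outside the mast cell lists limma called 0 genes, with 16 higher and 19 lower at an unadjusted p under 0.05. Over all genes 5.25% were higher and 4.11% lower at that limit. The lower ones included 11 of the 15 smooth muscle genes tested. The higher ones included 5 of the 7 intraepithelial lymphocyte and natural killer cell genes. They also included 5 of the 10 B and plasma cell genes, a list with 6 positive and 4 negative differences. In these lists the counts were well above the shares over all genes. Over the 17 lists together no share was computed.

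The genes around the chymase pair were read to see whether the lower values extended along the chromosome. These 8 were chosen by position, within 250 kb of the pair, outside the rule for named genes and with the values of the table already seen. None adjoined the pair. The nearest on one side, Khnyn and Sdr39u1, lay 118 kb away, and Gzmb, on the other side, 214 kb away. No gene closer to the pair had values, so how far lower values extended around it cannot be told. Gzmb, the granzyme B gene, which belongs to the same protease gene cluster, read 28.6 and 25.4 FPKM in vehicle and 41.7 and 33.7 FPKM in PCN, with both PCN libraries higher and a log2 difference of 0.46. Sdr39u1, Khnyn and Cideb were also higher in both PCN libraries, by 0.52, 0.23 and 0.23. Ltb4r1, a leukotriene receptor gene, was lower in both by a log2 difference of -0.29, at about 1 FPKM. Nop9, Ripk3 and Nfatc4 overlapped between the groups. Over all genes, PCN was higher without overlap in 21.1% and lower in 19.1%. limma called 0 of the 8, with adjusted p from 0.23 for Sdr39u1 to 0.95 for Nop9. An unadjusted p under 0.05 was found for 3 of them (Sdr39u1, Gzmb and Cideb), all higher in PCN, where 5.25% of all genes were.

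**Figure D4:**
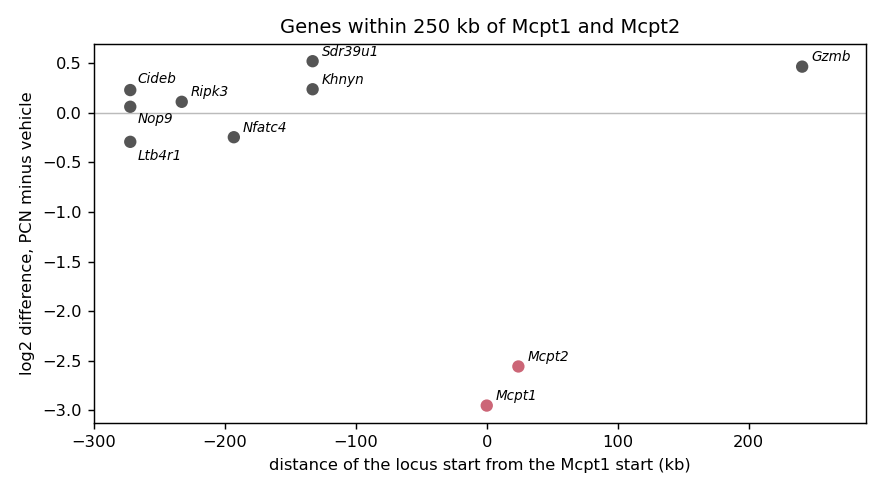
Difference between PCN and vehicle in mean log2(FPKM + 1) of Mcpt1, Mcpt2 (red) and the 8 other genes of the table within 250 kb (grey), by the distance of each locus start from that of Mcpt1 in kb. The 2 chymase genes lie at -2.95 and -2.56 and the 8 neighbours between -0.29 and 0.52.

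Likeness of pattern was measured as the root mean square difference between log2(FPKM + 1) profiles over the 4 libraries, each centred on its own mean, and is a description. Of all tested genes the nearest to Mcpt1 was Mcpt2 and the nearest to Mcpt2 was Mcpt1, at 0.227, where the median gene was at 1.51 from Mcpt1 and 1.31 from Mcpt2. Both chymases were chosen for low PCN values in these same libraries, so their closeness is partly set by that choice and is no support. The next nearest to Mcpt1 were Cracr2a (0.378), Dnase1 (0.391), Sh3pxd2a (0.423) and Bhlhe22 (0.519), and to Mcpt2 Cracr2a (0.258), Bhlhe22 (0.337), Sh3pxd2a (0.342) and Camk1g (0.377). Dnase1 read 12.8 and 11.7 FPKM in vehicle and 0.458 and 0.736 FPKM in PCN. Cracr2a read 4.72 and 5.84 FPKM in vehicle, and it, Sh3pxd2a, Bhlhe22 and Camk1g were listed at 0 in both PCN libraries, unlike the chymases. With 0.1 in place of 1 added to the FPKM, only the partner chymase was still among the 5 nearest to either gene. No gene of the mast cell lists was among them.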

How the data were processed

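Ileum RNA was sequenced from 2 vehicle and 2 PCN libraries made with a SMARTER kit per the labels. The values are FPKM per transcript as the authors deposited them, on mm10 per the submitters' processing notes. The study's supplementary methods describe colon RNA, a TruSeq kit, STAR alignment to a pig genome and HTSeq gene counts, which conflicts with the tissue and kit of the labels, with mm10 and with FPKM, so the aligner and quantifier behind these values are uncertain. The table held protein-coding transcripts only. An FPKM is an estimate, and a 0 can be a failed one. FPKM summed to 481925 to 550832 per library, and 3.87% to 7.15% of transcripts were at 0. Depth is unknown. Steps between low values of 28 of 1237 single-transcript genes (tolerance 0.0003 in natural log) made a fragment worth 1.35 times as much in PCN 1 as in vehicle 1, and gave no clear ratio for other pairs, so no counting intervals are given.

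FPKM were summed per gene symbol and compared on the log2(FPKM + 1) scale by limma-trend (limma 3.58.1 in R 4.3.3) for the 11103 genes averaging 1 FPKM or more, with Benjamini-Hochberg adjustment, a threshold of 0.05 and 2 residual degrees of freedom. The procedure was tested on simulated data. The members and the 22 gene lists were chosen with earlier results of these data known. Named genes were the members, the 8 most abundant and any called gene of each mast cell list, the 2 most abundant and any called gene of each other list, the 5 genes nearest in pattern to each chymase, and Ptprc, Ano1 and Cyp3a11. The neighbours on chromosome 14, and Synm in the closing section, were named outside this rule after their values were seen. Transcript structures were from GENCODE M21. Other pseudocounts, filters, scalings, covariates, a replicate block, single transcripts and leaving out each library were tried.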

Additional observations from a re-analysis of the deposited data

How the results depend on the processing

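With 2 libraries a group and 2 residual degrees of freedom, counts of calls moved widely. Over all genes, 9 were called higher and 6 lower. The counts were 34 and 22 with a filter at 5 FPKM, 24 and 13 with all libraries scaled to an equal, larger sum, 2 and 0 without the mean-variance trend, 1 and 0 for single transcripts, 2 and 1 after adding the smooth muscle covariate and 0 and 0 after the leukocyte one. A pseudocount of 0.1 gave 5 higher. Leaving out 1 library gave 0 to 8 higher and 0 to 12 lower, the 12 without vehicle replicate 1. With the replicate number as a block the counts were 39 and 21, although same-numbered libraries did not deviate together (correlation over genes 0.034) and the labels do not pair them. Calls among the mast cell genes other than the members stayed at 0 in every alternative. Their median log2 difference of 0.08 became 0.11 with the filter at 5 FPKM, 0.13 with equal sums, 0.12 with the leukocyte covariate and 0.04 for single transcripts (0.036), and was 0.041 to 0.097 with 1 library left out. In other lists, Xbp1 was called higher with the filter at 5 FPKM (1 gene), Synm lower with equal sums (1 gene), and with the block 1 higher (S100a8) and 1 lower (Fabp6). The Mcpt1 difference ran from -3.53 to -2.95, or -3.37 to -2.53 with 1 library left out, and that of Mcpt2 from -2.98 to -2.56, or -2.90 to -2.21. Cpa3 ran from -1.90 (pseudocount 0.1) to -0.62 (without PCN replicate 2), and was not fitted with covariates. Kit and Fcer1g changed sign with a covariate, up to 0.22 and 0.96, and not only there. Fcer1g was 0.02 with equal sums and ran from -0.29 to 0.21 with 1 library left out. For single transcripts Kit was at 0.11 in the longer form and -0.52 in the shorter. Over all leukocyte denominators the ratio of PCN to vehicle was 0.0928 to 0.121 for Mcpt1, 0.695 to 0.951 for Kit and 0.733 to 1.03 for Fcer1g. The causes were not tested.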
